A study of Homo sapiens with 6 samples.

Results

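The 726 widest TTD peaks of HepG2 chromatin, each 10 kb or more in width, were described here out of 31569 TTD peaks in all. TTD is the tandem Tudor domain of human UHRF1. The members were selected by their measured width, so the width itself is given as a description and is not a finding. The 6 libraries of the study came from untreated HepG2, a human hepatoblastoma line, and included 2 biological replicates in which native mononucleosomes released by MNase were pulled down with GST-fused TTD (residues 126 to 280) in a ChIP-like assay called CIDOP. H3K9me2 ChIP and input libraries were also made from these cells, and neither is analysed here. The peaks came as 1 list called on the mean signal of both TTD replicates, with a position and a width and no height, so no value below has a replicate error and no test between groups of peaks was possible. Shares of peaks or genes are given with 95% Wilson intervals, which cover counting error only and treat neighbouring peaks as independent. HepG2 is 1 aneuploid tumour line, and the isolated domain was used in place of the whole protein.

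UHRF1 helps to keep DNA methylation in place after replication by recruiting DNMT1. Its tandem Tudor domain reads the tail of histone H3, where methylated lysine 9 sits in an aromatic cage and lysine 4 lies in a neighbouring pocket. H3K9 methylation is known for silent chromatin and H3K4me1 for enhancers and the edges of active promoters, and the domain can bind tails that carry both marks.

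The members are regions, so stretches of their sequence come before the values. Sequence was taken for promoters that lay wholly inside a member, because a long TTD peak across a promoter is a direct link between a member and a gene. RefSeq promoters (GRCh38.p14) run from 250 bases before to 50 bases after the start of the gene, 300 bases in all. Of the 35 protein-coding genes with the transcription start site (TSS) in a member, 24 had such an entry, and 18 of these windows lay wholly in the peak. Shown are the 5 of these genes whose GENCODE gene start lay deepest in its peak, and HOXD1, whose TSS had the highest CpG ratio. The RefSeq start of ALB, used for the window shown, lies 7173 bp downstream of its GENCODE start. This RefSeq start is 2123 bp from the peak edge, whereas the GENCODE start is 9296 bp from it. The starts of the others shown are the same in both annotations. DHRS2, the widest peak of all, also had the lowest CpG ratio. Each sequence reads 5′ to 3′ on the strand of the gene, and capitals mark CpG dinucleotides.
SLC22A25 promoter, chr11:63243550-63243849, minus strand: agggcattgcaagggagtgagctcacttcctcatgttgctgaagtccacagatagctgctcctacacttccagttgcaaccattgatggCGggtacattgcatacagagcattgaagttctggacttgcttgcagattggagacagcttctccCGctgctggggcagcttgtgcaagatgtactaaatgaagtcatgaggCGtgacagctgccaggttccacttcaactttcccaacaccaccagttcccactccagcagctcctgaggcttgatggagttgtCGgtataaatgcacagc
DHRS2 promoter, chr14:23629865-23630164, plus strand: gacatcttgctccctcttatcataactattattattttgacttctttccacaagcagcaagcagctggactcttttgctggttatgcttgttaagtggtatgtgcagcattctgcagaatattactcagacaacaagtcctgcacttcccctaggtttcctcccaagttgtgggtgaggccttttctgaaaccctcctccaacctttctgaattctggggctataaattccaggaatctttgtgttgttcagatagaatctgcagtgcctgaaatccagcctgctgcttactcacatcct
UGT2B10 promoter, chr4:68815744-68816043, plus strand: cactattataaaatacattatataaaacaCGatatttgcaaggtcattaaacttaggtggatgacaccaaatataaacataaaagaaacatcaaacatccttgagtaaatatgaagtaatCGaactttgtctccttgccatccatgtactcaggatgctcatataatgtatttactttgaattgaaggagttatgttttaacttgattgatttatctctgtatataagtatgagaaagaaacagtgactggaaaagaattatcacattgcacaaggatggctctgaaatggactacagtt
ALB promoter, chr4:73404037-73404336, plus strand: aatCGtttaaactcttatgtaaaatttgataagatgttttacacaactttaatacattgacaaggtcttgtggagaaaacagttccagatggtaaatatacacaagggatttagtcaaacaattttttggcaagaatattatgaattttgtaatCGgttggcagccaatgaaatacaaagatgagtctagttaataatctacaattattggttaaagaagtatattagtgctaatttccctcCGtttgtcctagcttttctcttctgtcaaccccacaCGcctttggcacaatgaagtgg
CPB2 promoter, chr13:46104984-46105283, minus strand: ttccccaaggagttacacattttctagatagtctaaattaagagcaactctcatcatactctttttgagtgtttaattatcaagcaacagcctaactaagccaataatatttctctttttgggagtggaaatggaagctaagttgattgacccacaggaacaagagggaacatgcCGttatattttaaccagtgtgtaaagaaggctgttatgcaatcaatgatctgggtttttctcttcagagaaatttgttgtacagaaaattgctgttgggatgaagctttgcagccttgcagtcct
HOXD1 promoter, chr2:176188418-176188717, plus strand: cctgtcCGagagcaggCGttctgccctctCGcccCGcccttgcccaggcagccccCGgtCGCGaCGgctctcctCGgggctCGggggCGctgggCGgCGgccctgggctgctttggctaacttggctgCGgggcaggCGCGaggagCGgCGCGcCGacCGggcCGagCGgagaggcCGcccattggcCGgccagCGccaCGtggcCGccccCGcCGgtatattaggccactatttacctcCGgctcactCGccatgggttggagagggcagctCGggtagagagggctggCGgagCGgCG
The promoters of SLC22A25, DHRS2, UGT2B10, ALB and CPB2 held 4, 0, 2, 4 and 1 CpG, and that of HOXD1 held 36. SLC22A25 encodes an organic anion transporter family member, DHRS2 a short-chain dehydrogenase, UGT2B10 a glucuronosyltransferase, ALB serum albumin and CPB2 a carboxypeptidase that slows fibrinolysis. HOXD1 is a developmental homeobox gene. Over the 18 promoters the median was 1.5 CpG (quartiles 1 to 3.75). It was 8 (3 to 23) over 424 promoters whose TSS lay in a narrower TTD peak, and 22 (9 to 32) over 15345 protein-coding promoters. The 424 windows were not required to lie wholly in their peak, as the 18 were, so this comparison is not like for like. The TATA box letters TATAAA were found on either strand in 5 of the 18 promoters (27.8%, 12.5 to 50.9). SLC22A25, DHRS2 and UGT2B10 above were among these 5. The share was 14.6% of those with the TSS in narrower TTD peaks and 9.63% of all protein-coding promoters. A match at any place in the 300 bases was counted, so it need not be a TATA box in use. The HNF1 half-site GTTAAT was found in 4 of the 18 (22.2%, 9.001 to 45.2), ALB and FABP1 among them, in 10.6% of those in narrower peaks and in 5.26% of all. These intervals for the 18 promoters include the shares in narrower peaks. FABP1 encodes the liver fatty acid binding protein. The 9 letters CAAAGTCCA of the HNF4 motif were in none of the 18 windows, which allows a share of up to 17.6%, in 2.12% of those in narrower peaks and in 0.319% of all promoters.

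Most of a member is not promoter, so the central 150 bases of 3 of the widest members are shown next, from hg38 and with CpG again in capitals. The member at ACSM2B is left out because ACSM2A and ACSM2B are near-identical neighbours whose reads may be shared.
DHRS2 peak middle, chr14:23614616-23614765, plus strand: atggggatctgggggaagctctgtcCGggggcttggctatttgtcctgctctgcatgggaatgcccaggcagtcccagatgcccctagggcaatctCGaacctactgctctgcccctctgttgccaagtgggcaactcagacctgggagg
TNFAIP3-side peak middle, chr6:137726076-137726225, plus strand: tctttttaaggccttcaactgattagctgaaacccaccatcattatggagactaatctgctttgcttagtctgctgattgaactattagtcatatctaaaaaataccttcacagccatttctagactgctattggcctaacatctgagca
SCN1A-side peak middle, chr2:166168336-166168485, plus strand: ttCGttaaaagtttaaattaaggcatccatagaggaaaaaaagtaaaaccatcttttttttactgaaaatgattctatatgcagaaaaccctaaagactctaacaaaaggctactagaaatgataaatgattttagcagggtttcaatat
These stretches held 2, 0 and 1 CpG, and their GC content was 60.7%, 38% and 28%.

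The members covered 10.4 Mb, which was 11.1% of all TTD peak length, although they made up 2.30% of the peaks. Their median width was 12510 bp (quartiles 11050 to 15610), against 2200 bp (1350 to 3510) for the 30843 remaining peaks. The narrowest members were 10010, 10010 and 10020 bp wide, and the widest peaks left out were 9990, 9990 and 9990 bp. Within 500 bp of the threshold lay 91 members above it and 124 peaks below it, so widths ran on without a gap. Of the members, 651 were narrower than 20 kb and 75 were 20 kb or more.

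**Figure D1:**
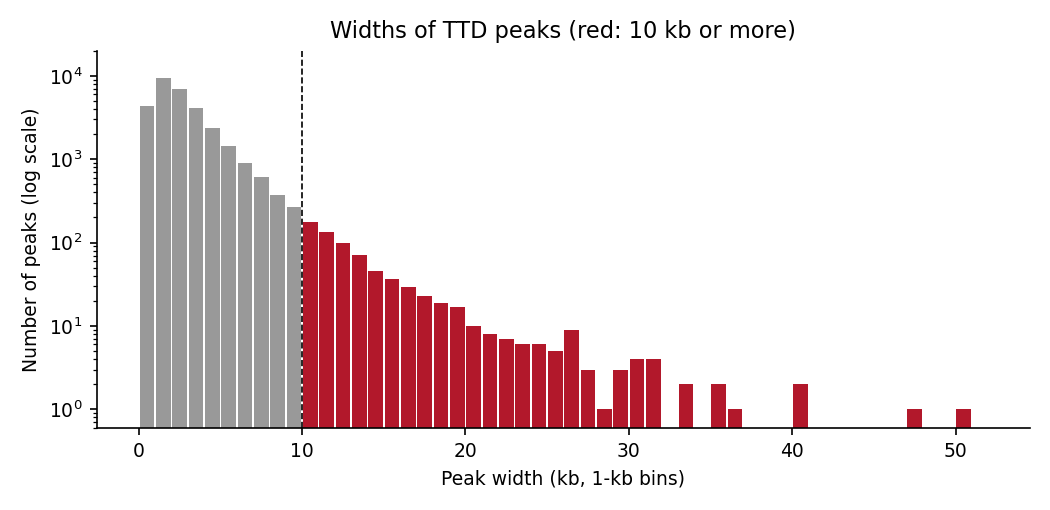
Number of TTD peaks (log scale) in 1-kb bins of width in kb, with members in red and the threshold as a dashed line. The counts run on across 10 kb with no break, and the widest peak, of 50780 bp, stands at the far right.

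The widest member ran 50780 bp, at chr14:23589301-23640080, and took in the TSS and 64.2% of the body of DHRS2, whose product was first described in HepG2 cells. The other members among the 10 widest overlapped the protein-coding genes ACSM2B and TFPI, and several overlapped lncRNA genes. The second, at chr8:128156961-128204030 (47070 bp), overlapped the long non-coding RNA gene PVT1 and lay 421527 bp from the TSS of MYC, the nearest protein-coding TSS. Another on the same chromosome, at chr8:128575981-128616280 (40300 bp), lay 840547 bp from MYC with no annotated protein-coding or lncRNA gene in it. At chr6:137705751-137746550, 40800 bp lay in lncRNA genes, 120664 bp upstream of TNFAIP3, which encodes a ubiquitin-editing brake on NF-kB signalling.

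The member at chr16:20570571-20607500 (36930 bp) held the TSS of ACSM2B, a mitochondrial medium-chain acyl-CoA synthetase. Inside TFPI, which encodes an inhibitor of the tissue factor pathway of coagulation, lay a member of 35150 bp at chr2:187503481-187538630. At chr2:21044381-21076350 a member of 31970 bp ended 308 bp upstream of the TSS of APOB, the main protein of very low and low density lipoprotein. A member of 35620 bp at chr2:166150601-166186220 lay 1387 bp upstream of SCN1A, a neuronal sodium channel gene, and all of it in the lncRNA gene SCN1A-AS1. WDR72 (chr15:53431441-53464480, 298398 bp to the TSS) and SNTB1 (chr8:120821821-120854860, 8548 bp) each neighboured a member of 33040 bp, the first with 22047 bp in an lncRNA gene (ENSG00000287596).

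The members held fewer protein-coding genes per base than the remaining peaks. Of their bases, 38.5% lay in protein-coding genes (GENCODE release 44), against 50.6% for the remaining peaks and 44.4% of the genome without gaps. Exon bases made up 1.76% in members, 3.20% in remaining peaks and 3.70% in the genome. Members held 3.38 protein-coding TSSs per Mb, remaining peaks 6.67 and the genome 6.82. In contrast, lncRNA genes outside protein-coding genes took 24.5% of member bases, 16.1% in remaining peaks and 14.997% in the genome. The share of bases in genes was lower in members than in remaining peaks on 21 of 24 chromosomes, and TSSs per Mb were lower on 21.

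Counted by peak, 328 of 726 members (45.2%, 41.6 to 48.8) overlapped a protein-coding gene, against 52.8% (52.2 to 53.4) of the remaining peaks, although a wider region has more chance to touch a gene. Of the members, 266 lay wholly inside a gene, and 130 of these touched no exon. Another 204 members (28.1%, 24.95 to 31.5) had no protein-coding gene but a lncRNA gene, against 15.9% of remaining peaks, and 194 (26.7%) had neither, against 31.3%.

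The distance to a TSS also differed. From the edge of a member to the nearest protein-coding TSS the median was 74975 bp (quartiles 20980 to 173037), and it was 43480 bp (13112 to 114829) for remaining peaks. This value depended on which starts were counted. With the starts of all transcripts of protein-coding genes the medians were 32552 bp for members and 18505 bp for remaining peaks. With genes of any type they were 11766 bp and 13156 bp, so the order of the groups turned round. More than 100 kb separated 41.6% (38.1 to 45.2) of members from a TSS, against 28.2% (27.7 to 28.7). Just outside a TSS, at 1 to 2000 bp from the edge, lay 27 members (3.72%, 2.57 to 5.36) against 7.97% of remaining peaks, and 17 of the 27 were upstream of the gene, as were 1535 of 2458 remaining peaks at that distance. The 75 members of 20 kb or more were an exception to the distance: their median was 41773 bp, and 9 of them (12%, 6.44 to 21.3) contained a TSS.

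**Figure D2:**
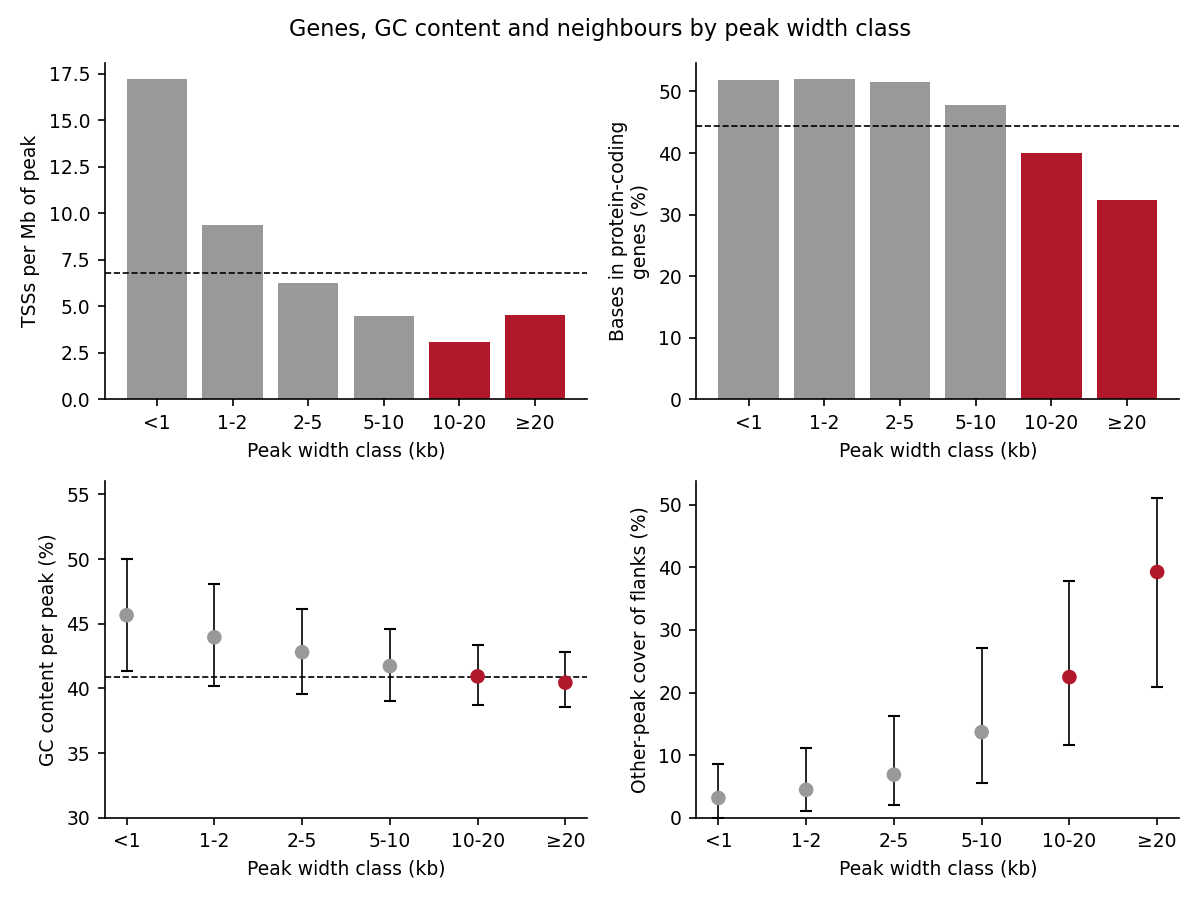
TSSs per Mb of peak and percent of bases in protein-coding genes (bars), and medians with quartiles of GC content and of the percent of the 50-kb flanks on each side that lay in other TTD peaks (points), for 6 width classes with members in red; dashed lines give the genome value. TSSs per Mb go from 17.2 in the narrowest class to 3.10 at 10 to 20 kb and 4.54 at 20 kb or more, and flank cover from 3.17% to 39.3% in the widest class.

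A TSS lay inside 32 members (4.41%, 3.14 to 6.16), against 1.72% of remaining peaks, and these 32 held 35 TSSs, which is 0.175% of 20033 protein-coding genes. With the starts of all transcripts the shares were 14.7% of members and 5.44% of remaining peaks, and with genes of any type 21.9% and 5.93%. A wider region has more chance to hold a TSS. Per Mb of peak, members held fewer protein-coding TSSs, 3.38 against 6.67. A member spans 10 kb or more by its selection, so its reach around a TSS is given as a description. The median reach was 8614 bp upstream and 6499 bp downstream, and 24 of the 35 TSSs had at least 2.5 kb of peak on both sides, whereas 4 lay within 1 kb of an edge. The DHRS2 peak reached 40814 bp upstream, the peak at TAT (tyrosine aminotransferase, a glucocorticoid-responsive liver enzyme) 22778 bp, and that at FABP1 20498 bp. The MBL2 and UGT2B15 peaks lay mainly downstream of the TSS, by 22183 and 18911 bp. The UGT2B15 peak covered 18912 bp of its gene, whereas MBL2 is 7405 bp long and its peak ran on past the gene. MBL2 encodes mannose-binding lectin, which starts the lectin pathway of complement, and UGT2B15 an androgen-conjugating enzyme. At SCN1A and TFEB the TSS lay within 100 bp of the peak edge, 76 and 68 bp.

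**Figure D3:**
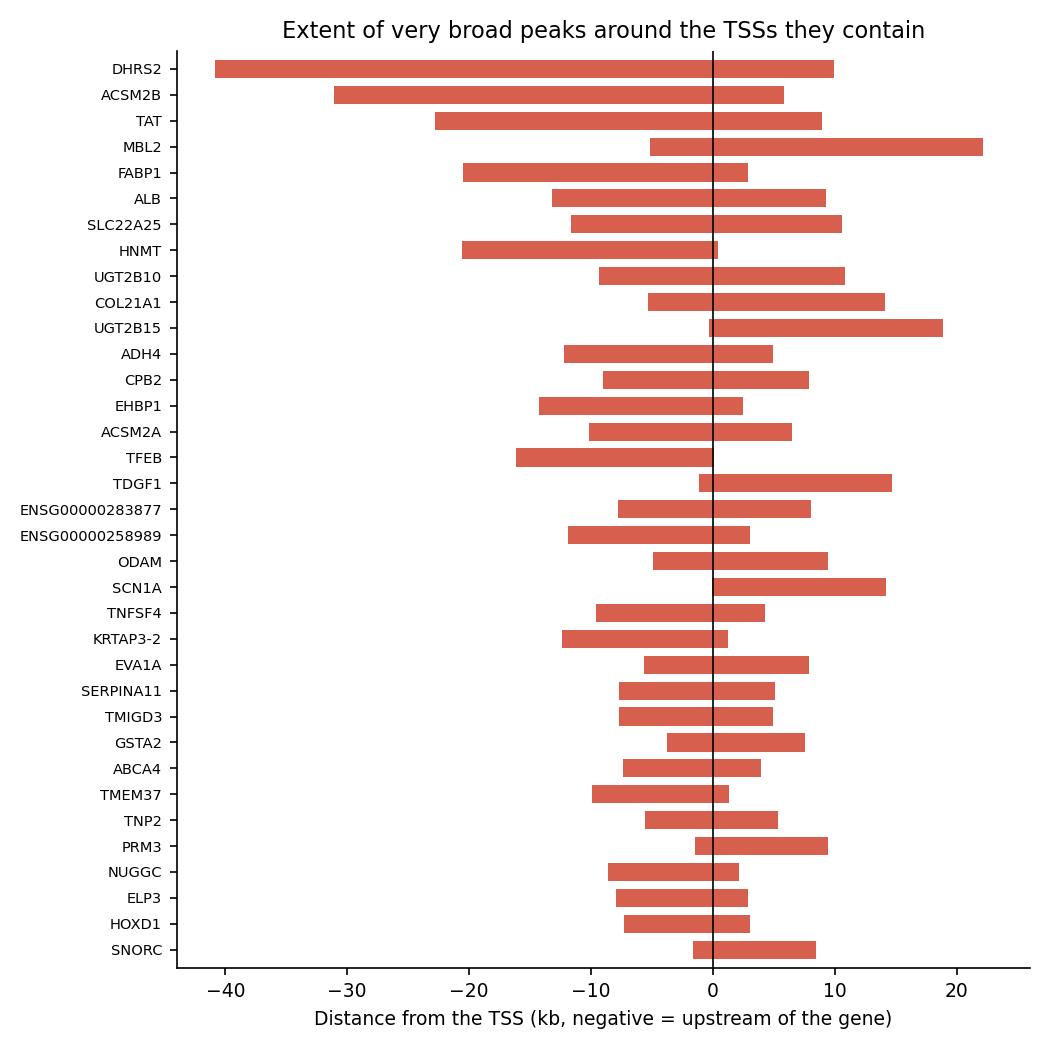
Extent in kb of the member around each of the 35 TSSs it contains, with the TSS at 0 and upstream of the gene to the left, ordered by peak width. The widest bars are those of DHRS2, ACSM2B and TAT, all mainly upstream, whereas MBL2 extends 22183 bp downstream.

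In 1 kb around the TSS, the ratio of observed to expected CpG had a median of 0.187 over these 35 genes, 0.267 over the 554 TSSs in remaining peaks and 0.688 over all protein-coding genes. The ratio was below 0.4 in 34 of the 35, the exception being HOXD1 at 0.88, and the lowest was DHRS2 at 0.046. Below 0.4 were 62.6% of the TSSs in remaining peaks, 83.2% of those in peaks of 5 to 10 kb and 28.9% of all protein-coding TSSs.

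A whole gene body lay inside a member for 7 genes. These were MBL2, ODAM (an enamel protein), TDGF1 (the signalling co-receptor Cripto), TNP2 and PRM3 (which shared 1 member), HOXD1, and the hair keratin-associated KRTAP3-2. SLC2A2, the hepatocyte glucose transporter GLUT2, had 81.9% of its body in a member of 26890 bp.

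In all, 290 of 20033 protein-coding genes overlapped a member, a background of 1.45%. Their median length was 147974 bp against 27471 bp for all, and a long gene has more bases that a peak can meet. Of the 290, 43 held more than 1 member and 10 held 3 or more. STXBP6, a SNARE-binding protein gene, held 6 members with 76840 bp in all, 31.9% of the gene. MIPOL1 and WWOX, a large gene at a common fragile site, held 4 each. With 3 each came ANTXR1, EVA1A, FMNL2, ZNF385B, LRMDA, the transcription factor gene SOX5, and SPTLC3, a subunit of serine palmitoyltransferase. By bases, the order after STXBP6 was MIPOL1 (62430 bp), SPTLC3 (55660), WWOX (49940), ANTXR1 (49050), FMNL2 (46610), TFPI (45180), ZNF385B (43100), EVA1A (42232) and LRMDA (38800). Of these, WWOX and LRMDA are over 1 Mb long, and members filled 4.49% and 3.44% of them, whereas EVA1A and TFPI were filled to 42.1% and 44.5%.

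Liver genes were overlapped more often than protein-coding genes at large. Of 325 genes on 12 liver lists, 38 (11.7%, 8.64 to 15.6) overlapped a member, against the background of 1.45% and against 1 of 72 genes (1.39%, 0.246 to 7.46) on lists for neuron, muscle and blood. The 38 genes met 41 members on 15 chromosomes. The liver lists were also ahead for remaining peaks: 62.5% of liver genes overlapped one, against 34.7% of the other-tissue genes and 34.1% of all protein-coding genes. The median gene length was 25775 bp on the liver lists and 31944 bp on the others. The sole other-tissue gene was CNTNAP2, a neuronal adhesion gene of 2304997 bp, with 478 bp in a member.

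Drug- and hormone-conjugating enzymes stood at 8 of 29 genes (27.6%, 14.7 to 45.7). UGT2B15 had 78.6% of its body in a member, UGT2B10 67.7% and the glutathione transferase GSTA2 56.2%. GSTA1, BAAT (which joins bile acids to glycine or taurine), UGT2B7, SULT1B1 and SULT1E1 were the others. The UGT2B and GSTA genes are close paralogs in tandem, so reads may be shared between copies and each gene's own value is uncertain. Alcohol and aldehyde enzymes stood at 5 of 24, with 32.0% of AKR1C3, 29.3% of ADH6 and 14.6% of ADH4, and the AKR1C genes carry the same reservation. Transporters stood at 7 of 33 matched genes (1 listed symbol, SLCO1B7, was not matched), led by SLC2A2, then ABCA9 with 35.6% and SLC38A4 with 17.96%.

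Intermediary metabolism gave 3 of 37 genes, among them TAT with 78.5% and CPS1, the first enzyme of the urea cycle, with 13.2%. Coagulation gave 3 of 20: the fibrinogen chain gene FGA with 43.9%, factor V (F5) with 15.9% and CPB2 with 15.2%. Transcription factors and nuclear receptors gave 5 of 35, with small shares of the gene: PPARGC1A, a coactivator of gluconeogenesis, 17.4%, PROX1 6.94% and AHR 5.05%. Of 28 complement genes MBL2 and C8A (34.2%) were overlapped, and of 39 plasma carriers and protease inhibitors SERPINA11 (49.6%) and ALB (38.2%). Single genes were overlapped among the apolipoproteins (APOH, 23.1%, of 26), the cytochromes P450 (CYP3A43, 30.4%, of 30) and the growth hormone and IGF axis (IRS1, 6.52%, of 16). None of 14 acute phase genes was overlapped (interval to 21.5%), although 11 of the 14 met a remaining peak. None of 20 muscle genes and none of 24 T cell and blood genes was overlapped (intervals to 16.1% and 13.8%).

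**Figure D4:**
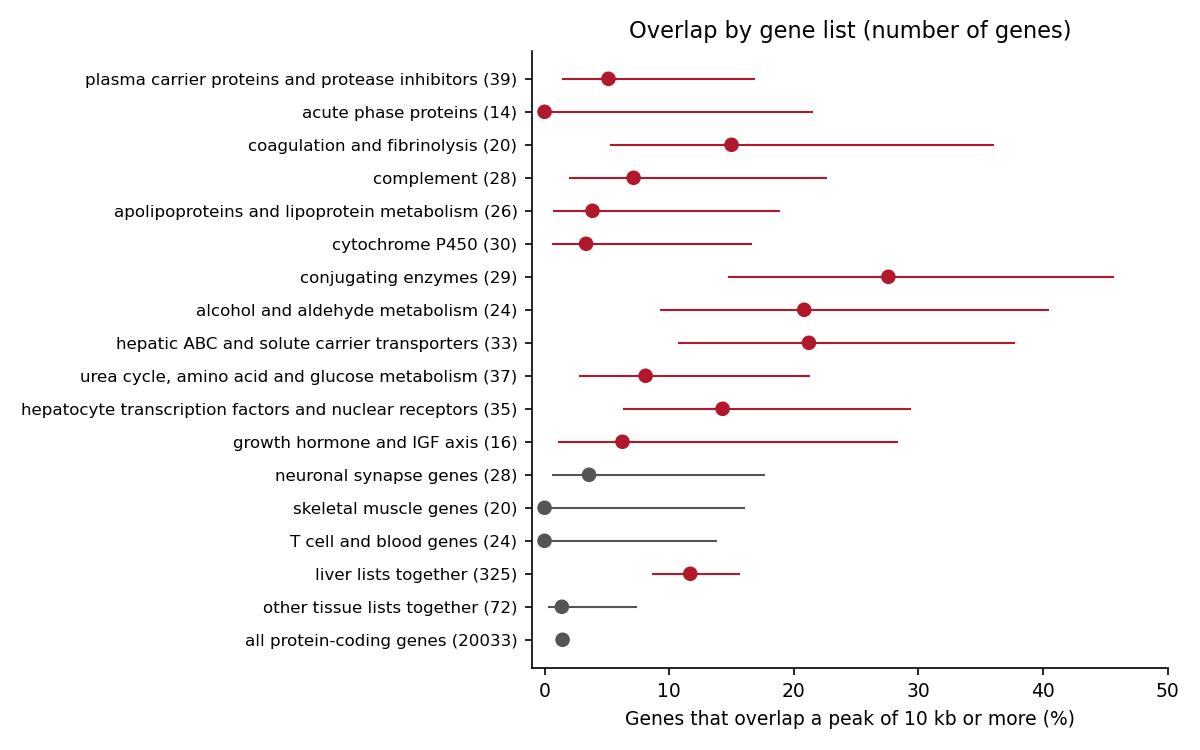
Percent of genes on each list that overlap a member, with 95% Wilson intervals as lines and the number of genes in parentheses, liver lists in red and other lists in grey. Conjugating enzymes stand highest at 27.6%, and the acute phase, muscle and T cell and blood lists are at 0.

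Proximity was counted next, whether or not the member touched the gene. Of the liver genes, 67 (20.6%, 16.6 to 25.3) had a member within 100 kb of the TSS, against 3.55% of all protein-coding genes and 6 of 72 (8.33%, 3.88 to 17.01) on the other-tissue lists. Of the 67, 37 were also overlapped by a member and 30 were not. For hepatocyte markers the count was 7 of 12 (58.3%, 32.0 to 80.7). The distance was 0 bp for ALB, 308 bp for APOB, 470 bp for AHSG (fetuin-A) and 4272 bp for FGA. It was 10880 bp for FGB, 26497 bp for FGG and 56978 bp for SERPINA1 (alpha-1 antitrypsin). The markers without a member within 100 kb were TTR (1240972 bp), APOA1 (1338152), HNF4A (2242792), ASGR1 (6220867) and TF (6951531). The fibrinogen genes FGA, FGB and FGG neighbour each other and shared 1 member (chr4:154573891-154586470), and 6 members in all lay within 100 kb of the 7 markers. The pioneer factor genes FOXA1 and FOXA2 lay 40709 and 44235 bp from a member. Of the 6 other-tissue genes, 5 were among the 24 T cell and blood genes (20.8%, 9.24 to 40.5), beside 20.6% on the liver lists, and 1 was neuronal. The T cell genes were CD8B at 527 bp, CD28 at 7255 bp with 3 members within 100 kb, CTLA4 at 38668 bp, CD8A at 54055 bp and CD3E at 96110 bp. CD28 and CTLA4 are neighbours and shared 2 members, which did not include the one 7255 bp from CD28, and CD8A and CD8B shared 1.

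No cholangiocyte, Kupffer cell, stellate, sinusoidal endothelium, T cell, neuron or muscle marker was overlapped by a member. Markers within 100 kb were CD3E and CD8A for T cells and LRAT for stellate cells. The member near LRAT, at 40475 bp, is the one shared by FGA, FGB and FGG. A peak shows binding and not transcription, so these markers do not check the label of the cells.

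Members stood in crowded surroundings. Another TTD peak lay within 10 kb of 88.4% (85.9 to 90.6) of members, against 50.6% (50.0 to 51.1) of remaining peaks, and the median gap to the nearest peak was 1720 bp against 9760 bp. Other peaks covered a median of 23.7% (quartiles 12.3 to 40.5) of the 50 kb on each side, against 5.93% (1.64 to 14.8). This cover was higher for members on 24 of 24 chromosomes, and it ran with width through all classes, being 13.7% at 5 to 10 kb. The smallest gap between neighbouring peaks in the list was 610 bp, and 33.7% of members had a neighbour less than 1 kb away, against 11.9% of remaining peaks. Merging across gaps under 1 kb first gave 1108 regions of 10 kb or more. Only 18 members had no other peak in these flanks.

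Members also lay near each other. With up to 50 kb allowed between them, 258 members (35.5%) fell into 101 runs, of which 31 held 3 or more. The longest run, of 8 members, spanned 271.0 kb at chr2:215609041-215880030, 52.5% of it in members, on the upstream side of FN1, the fibronectin gene. Its member of 31120 bp lay 240118 bp from the FN1 TSS. Runs of 6 lay at NOX3, an NADPH oxidase gene (chr6:155329331-155530190), at chr8:128490471-128658600, and into IRS1, the insulin receptor substrate gene (chr2:226553561-226735780). In the densest run of 4, at chr2:226112041-226192580, members filled 94.0% of 80.5 kb. By 1-Mb windows, 445 of 3102 held a member, and the fullest held 11 (chr2:226000001-227000000).

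The chromosomes differed in how many members they held. Chromosome 2 held 148 (20.4% of members, against 8.19% of the genome), chromosome 6 held 88, chromosome 1 held 49, chromosome 14 held 45 and chromosome 20 held 44. Chromosomes 19 and 22 held 1 each, X 4 and Y 3. Per Mb, chromosome 20 came first at 0.688, then chromosome 2 at 0.615, chromosome 6 at 0.517, chromosome 14 at 0.497, chromosome 16 at 0.391 and chromosome 17 at 0.277, and every other chromosome was at 0.225 or less. The same 6 chromosomes had the highest density of all TTD peaks, 15.6 to 22.97 per Mb.

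**Figure D5:**
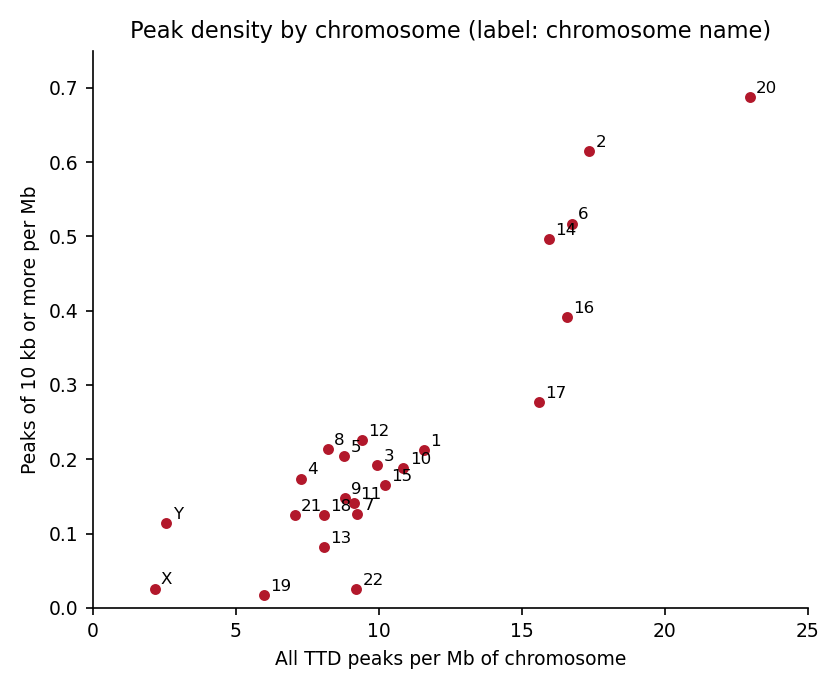
Members per Mb against all TTD peaks per Mb, 1 labelled point a chromosome, over the bases without gaps. Chromosomes 20, 2, 6, 14, 16 and 17 stand apart at 15.6 or more peaks per Mb, and chromosomes 19, 22 and X lie lowest.

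HepG2 is known to carry extra copies of chromosomes 2, 14, 16, 17 and 20, which was taken from general knowledge of the line and not measured in these data. These chromosomes held 40.2% (36.7 to 43.8) of members, 30.6% (30.1 to 31.2) of remaining peaks and 19.1% of the genome, and 56% (44.7 to 66.7) of members of 20 kb or more. Copy number and domain binding cannot be told apart in this list. Without these chromosomes 44.7% of members overlapped a protein-coding gene, 85.9% had another peak within 10 kb, and 11.7% of liver genes overlapped a member.

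All 3 members on chromosome Y lay upstream of BPY2 gene copies, at distances of 142089, 142080 and 147763 bp. A pair of them had the same width, 19330 bp, and 97.7% of the 31-base words of the first were found in the second, so the positions of reads between these near-identical copies are uncertain.

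Members were poorer in GC than remaining peaks. Their median GC content was 40.9% (quartiles 38.7 to 43.3), against 43.3% (39.8 to 47.1) for remaining peaks, and it was lower on 24 of 24 chromosomes. Pooled over bases, GC was 41.1% in members, 43.0% in remaining peaks and 40.9% in the genome. Members had a median of 7.41 CpG per kb, remaining peaks 8.88. The CpG ratio of whole members had a median of 0.181 (0.154 to 0.212), against 0.193 (0.147 to 0.252) for remaining peaks. The highest in a member was 0.647, at chr9:113063151-113077850, 6392 bp from ZFP37, where CpG stood at 57.8 per kb.

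Letters of liver factor motifs were counted on both strands over whole peaks. The FOXA core TGTTTAC stood at 0.179 per kb in members, 0.189 in remaining peaks and 0.163 in the genome. The HNF4 motif CAAAGTCCA stood at 0.0211, 0.0335 and 0.0131 per kb, in that order, and was 0.0682 in peaks under 1 kb and 0.0176 in those of 20 kb or more. The HNF1 half-site GTTAAT stood at 0.529, 0.484 and 0.512 per kb, higher in members than in remaining peaks. The C/EBP motif TTGCGCAA stood at 0.00193, 0.00181 and 0.00108, and only 20 of 726 members held it. It was 0.00179 in members of 10 to 20 kb and 0.00252 in those of 20 kb or more. No order between members and remaining peaks is drawn from so few matches. A match is a run of letters, not a bound site.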

How the data were processed

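Per the labels and the study's methods, the authors trimmed reads with Trimmomatic 0.38, checked them with FastQC 0.72, mapped them to hg38 with HISAT2 2.2.1, and computed mean RPKM coverage of both TTD replicates in small bins with deepTools 3.3.2. They called broad peaks with MACS2 2.1.1 at fixed cutoffs, removed blacklisted regions and removed artifacts and large false positives by hand. That curation touches broad peaks directly, and how many were removed is not given in the sources used here. The deposited list gives position and width in bp. The study's methods give a minimum of reads for each library and not the depth reached, no input or copy-number correction is stated, and H3K9me2 was not analysed here.

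Members were peaks of at least 10000 bp. Genes, TSSs (the 5′ end of the gene), exons and lncRNA genes came from GENCODE release 44 on hg38. Intervals, motifs and composition were computed in Python 3.11.15 with numpy 2.4.6, pandas 2.3.3 and scipy 1.17.1, with functions tested on simulated data. The observed to expected CpG ratio is CpG count times length over the product of C and G counts. Soft-masked repeats could not be measured because the genome copy used is in upper case. Genes were named for the 10 widest peaks, the 10 with most bases in members, those with 3 or more members, those wholly inside a member, and the 3 most covered on each list. One gene that this rule names is not reported here. Other genes were named after their values were seen. Promoters and peak sequences on chromosome 8 were not printed. The members and gene lists were chosen with earlier results of these data known.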

Additional observations from a re-analysis of the deposited data

How the results depend on the processing

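Of 44 values recomputed under other choices for 9 results, 21 stayed within the interval of the reported value (or within 1.5 times, for the number of members and the share of length). With the threshold at 8000 bp there were 1363 members holding 17.2% of peak length, and at 15000 bp there were 200 holding 4.42%. Joining peaks less than 1 kb apart before the threshold gave 1108 members holding 18.3%. At 8000 bp 83.2% had another peak within 10 kb, at 15000 bp 91.5%, and after joining 80.0%. A limit of 5 kb in place of 10 kb gave 77.1% and of 20 kb gave 94.1%. At 15000 bp the share with a TSS was 8.5%, median GC 40.6% and the liver genes overlapped 5.54%. Joining gave 15.7% of liver genes, and asking for the TSS alone gave 3.08%. With genes of any type 75.6% of members overlapped a gene, 21.9% held a TSS and the median distance was 11766 bp. With the TSSs of all transcripts 14.7% held one and the median distance was 32552 bp. Asking for the midpoint of the peak gave 39.7% in a gene. Without chromosomes 2, 14, 16, 17 and 20 median GC was 40.5%. The cause of these shifts was not tested beyond the construction of each choice.

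No paired analysis was possible because the 2 replicates were pooled before peaks were called, and neither replicate was left out. Depth, peak height and input were not in the list analysed, so precision per peak is unknown.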
